A study of Daphnia magna with 48 samples.

Results

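The subject is the change in gene expression in young Daphnia magna, a freshwater crustacean, under exposure to 3-chloropropanol. Whole animals exposed to 3-chloropropanol (3 arrays) were set against animals kept without the chemical (3 arrays), and these 6 arrays were all the samples of this chemical among 48 arrays in the series. The members were chosen by the group named in the sample titles, with no use of measured values. Per the labels, both groups started from neonates under a day old, were kept for 96 h and were collected at day 4, and each replicate was total RNA from 30 pooled whole daphnids. The exposed animals were kept at the EC10, the concentration at which 10% of animals were immobilised in separate tests of the same duration. The concentration itself, the strain and the renewal interval for this chemical are not given in the labels used here. The series held 8 chemicals, each with its own 3 exposed and 3 control arrays, so no control sample was shared between chemicals. Each array carried the sample in one dye and a common reference, a mixture of control and exposed aliquots, in the other.

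3-Chloropropanol is a short straight-chain alcohol that carries a chlorine. Together with isobutanol, a branched alcohol without chlorine, it stood for the non-polar narcotics, which act at baseline by partitioning into cell membranes rather than by binding one target. Narcotic effects in water fleas are commonly scored as immobilisation. A whole-body measurement sums all tissues, so fewer cells of a type and less RNA per cell cannot be told apart here. The values are log2 ratios for 6006 Daphnia probes, and a change is a difference of such ratios. No table at hand paired these probes with genes, so the probes are named by their IDs, no gene list could be applied, and no tissue marker could be checked.

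The direction of the ratios is likely sample over reference but is not settled by the labels. With the sign turned, each rise below reads as a fall and each fall as a rise, and the counts of called probes stay as they are with the 2 directions exchanged. Of 126 pairs of a 3-chloropropanol array with a same-dye array of another chemical, 3 had a correlation under -0.3 over probes, the lowest -0.41. Over pairs of either dye the lowest was -0.57, between control replicate 1 and a control array of 2,3,4-trichloroaniline. The labels state the dye of every sample and these pairs were of different samples, so the direction was kept as deposited.

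The 6 arrays divided by dye, and this bears on every value. Exposed replicates 1 and 2 and control replicate 2 had the sample in Cy3, while exposed replicate 3 and control replicates 1 and 3 had it in Cy5. Over all probes, the correlation between exposed replicates 1 and 2 was 0.84, and exposed replicate 3 correlated with them at 0.28 and 0.24. Control replicates 1 and 3 correlated at 0.94, and control replicate 2 correlated with them at 0.11 and 0.12. Control replicate 2 was closer to the exposed arrays of its own dye, at 0.50 and 0.47. Controls 1 and 3 were also closer to each other than any other same-dye replicate pair: the SD of their difference over probes was 0.132, against 0.218 to 0.520 for 15 other such pairs. They are therefore also treated below as 1 sample. Because dye and array likeness move together, the dye and any other property shared by the arrays of a dye cannot be told apart.

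With the dye as a covariate, exposure to 3-chloropropanol was tied to a change of 163 of 6006 probes (2.71%). Of these, 108 were higher (1.8%) and 55 lower (0.916%) in exposed animals, with 1072 probes at an unadjusted p under 0.05. With the arrays scaled to equal spread 32 were called, 11 of them higher. A probe is called here when its limma adjusted p (Benjamini-Hochberg over all probes) is under 0.05, and every adjusted p below is from limma. This fit takes the equal-weight mean of the exposed minus control difference in Cy3 and in Cy5, and counts their disagreement as error. The 108 rises ran from 0.54 to 4.51 with a median of 1.15, and 61 of them reached 1, a 2-fold change. The 55 falls ran from -6.08 to -0.57 with a median of -1.29, and 37 of them were of at least that size. The typical 95% confidence interval of a change was ± 0.32.

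All 163 called probes had the same sign in the Cy3 arrays alone and in the Cy5 arrays alone. Their exposed and control values also did not overlap within either dye, which held for 36.1% of all probes (18.8% higher and 17.2% lower). The shared sign follows from the fit, in which opposite signs in the dyes give an error too large for a call. It is therefore no separate evidence that the dyes agreed, and part of the missing overlap follows in the same way. Over all 6 arrays at once, exposed and control values did not overlap for 147 of the 163, against 16.8% of all probes. Among all probes, 51.8% had the same sign in both dyes. A difference of at least 1 in both dyes was found for 54 probes upward (0.899%) and 35 downward (0.583%), of which 47 and 33 were called. Another 11 probes passed this size in both dyes with opposite signs.

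**Figure D1:**
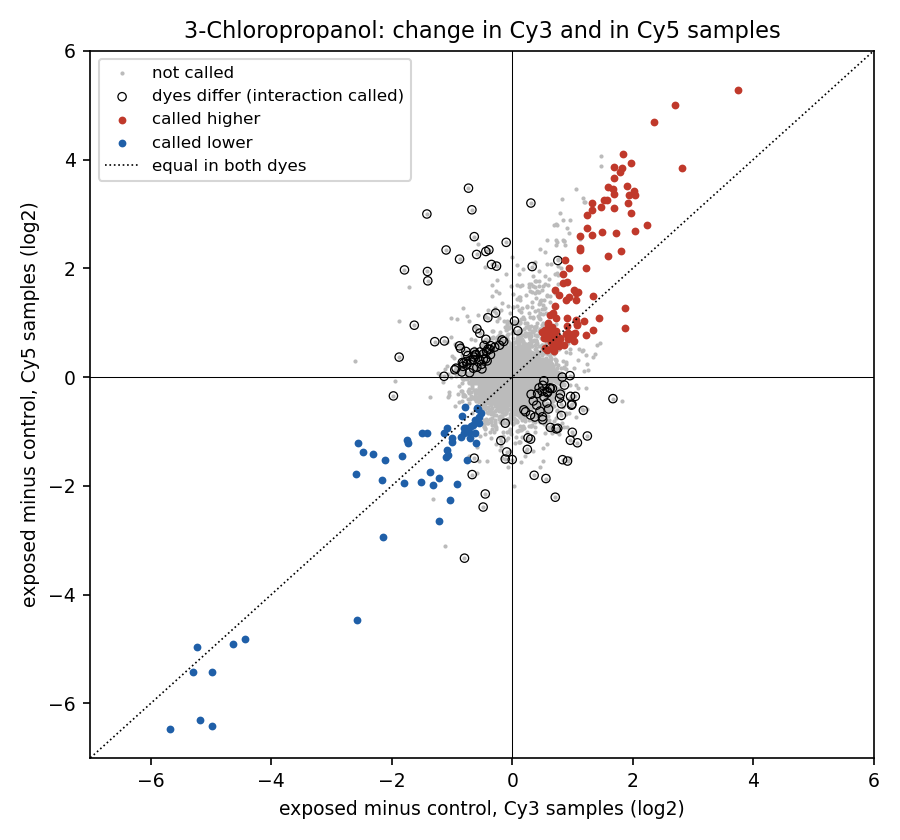
Exposed minus control difference of each of the 6006 probes in the Cy5 arrays (exposed replicate 3 against controls 1 and 3) and in the Cy3 arrays (exposed replicates 1 and 2 against control 2), in log2 units. Probes called higher are red, those called lower blue and those whose change differed between the dyes ringed. The red and blue points all lie where both differences have the same sign, which follows from the fit. The correlation over all probes was 0.43.

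The largest falls were found in 8 probes that dropped by at least 4 on the log2 scale in both dyes, a limit chosen after the values were seen. In the values as deposited, probe DM01862P3 fell furthest. It read -6.01, -7.29 and -6.42 in exposed animals and 0.08, -0.96 and 0.03 in controls. The exposed arrays of both dyes lay far below all 3 controls, and the groups did not overlap. Its mean level was -6.57 ± 0.66 in exposed animals and -0.28 ± 0.59 in controls (SD, n = 3 each). The fitted change was -6.08 ± 0.36 (SE, adjusted p = 0.00178), with -5.69 in Cy3 and -6.48 in Cy5. Probe DM08009P2 read -5.60, -6.69 and -6.26 in exposed animals and 0.04, -0.96 and 0.06 in controls. It fell by 5.75 ± 0.36 (SE, adjusted p = 0.00206), again with no overlap. With quantile normalization the change of DM01862P3 was -3.28 (adjusted p = 0.00611), with -2.58 in Cy3 (adjusted p = 0.102) and -3.98 in Cy5, and that of DM08009P2 was -2.66 (adjusted p = 0.00686), so both stayed called at a smaller size.

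The 8 probes moved as a block. Their changes ran from -6.08 to -4.63. On exposed replicates 1, 2 and 3 they read -6.17 to -5.16, -7.32 to -5.58 and -6.42 to -5.06, while on controls 1, 2 and 3 they read -0.41 to 0.08, -1.41 to -0.94 and -0.35 to 0.20. Control replicate 2 was the lowest control for the block, yet on each of the 8 probes it stood at least 4.06 above every exposed array. The least change of the 8 in a dye was -4.44, and the nearest probe outside, DM00126P2, reached -2.58 in its smaller dye. All 8 were called, against 0.916% of all probes called lower. All 8 also stayed called without any one of the 6 arrays, as did 17 falls in all. The 8 were chosen by their size on these same arrays, which favours a call, so these counts are no separate evidence. Their control means lay within the range of the control groups of the other 7 chemicals, and their exposed means lay below that range.

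**Figure D2:**
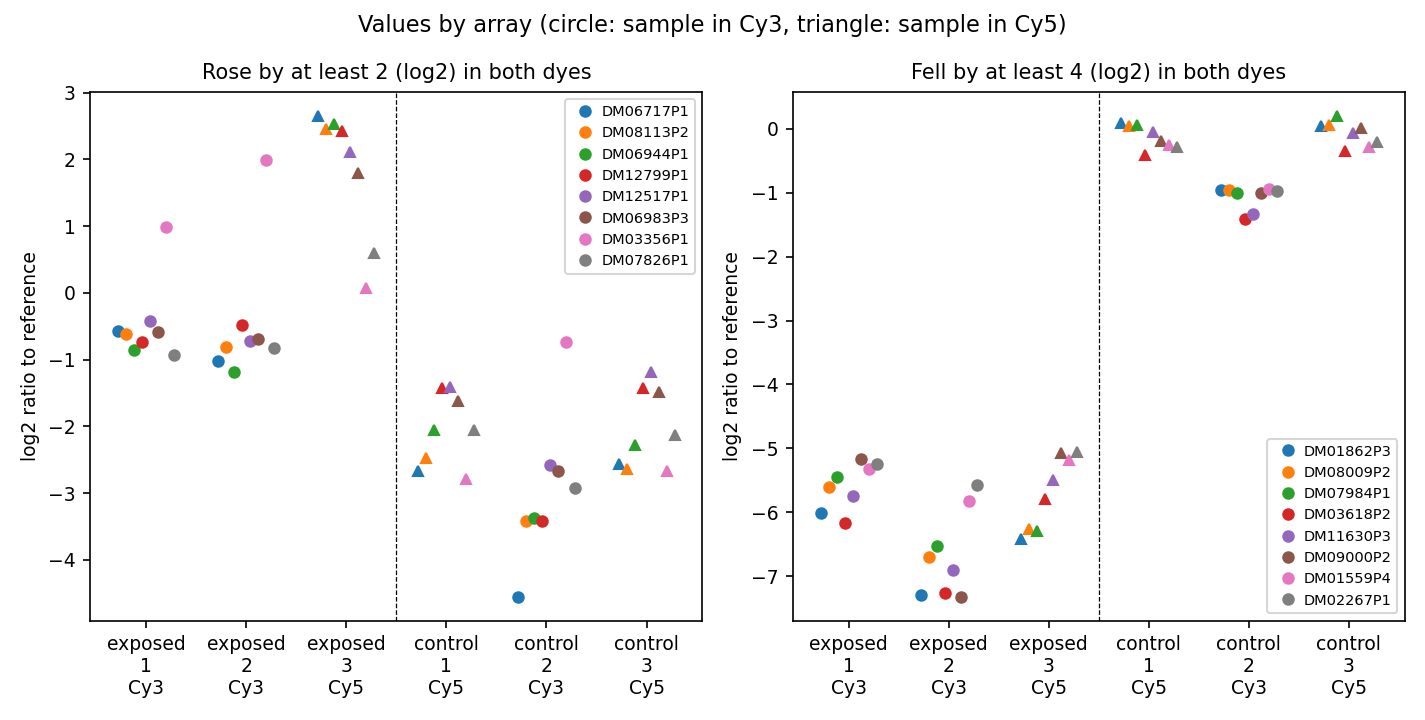
Log2 ratio to the common reference on each of the 6 arrays, exposed left of control, for the 8 probes with the largest falls and the 8 with the largest rises in both dyes, with the dye marked. The falling probes sit between -7.32 and -5.06 on exposed arrays and between -1.41 and 0.20 on control arrays, while 7 of the 8 rising probes are highest on exposed replicate 3 and DM03356P1 is highest on exposed replicate 2.

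The rises were led by probe DM06717P1. It read -0.58, -1.02 and 2.65 in exposed animals and -2.67, -4.55 and -2.57 in controls. The groups did not overlap, and the exposed array in Cy5 was far above those in Cy3. Its mean level was 0.35 ± 2.00 in exposed animals and -3.26 ± 1.12 in controls (SD, n = 3 each). The fitted change was 4.51 ± 0.33 (SE, adjusted p = 0.00311), with 3.76 in Cy3 and 5.27 in Cy5. Probe DM08113P2 read -0.62, -0.81 and 2.45 in exposed animals and -2.47, -3.41 and -2.63 in controls. It rose by 3.85 ± 0.47 (SE, adjusted p = 0.0147). In Cy5 alone it rose by 5.00 (adjusted p = 0.000845), while the Cy3 difference of 2.69 did not pass the test (adjusted p = 0.0544). With the arrays scaled to equal spread neither rise was called, with adjusted p-values of 0.0756 for DM06717P1 and 0.118 for DM08113P2, and without the dye covariate they were 0.269 and 0.243. The call of DM08113P2 also ended without exposed replicate 1 or 2 (adjusted p = 0.0774 and 0.0741).

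In all, 8 probes were higher by at least 2 in both dyes, again a limit chosen after the values were seen. All 8 were called, against 1.8% of all probes called higher, with changes of 2.37 to 4.51. Their choice by size on these same arrays favours a call, so this count is no separate evidence. They read -0.94 to 0.99 and -1.19 to 2.00 on the exposed arrays in Cy3 and 0.07 to 2.65 on the exposed array in Cy5. On controls 1, 2 and 3 they read -2.79 to -1.41, -4.55 to -0.74 and -2.67 to -1.18. The limit cut through a continuous range, with 2.02 just inside and 1.98 just outside. Of these 8 probes, 3 stayed called without any one array, as did 9 rises in all. All 15 of the largest rises were larger in Cy5 than in Cy3.

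The rises and falls differed in which group stood away from the other controls of the series. For the 8 rising probes, the exposed mean lay above the range of the other 7 control groups in 0 of 8, and the 3-chloropropanol control mean lay below that range in 7 of 8. DM06717P1 averaged -3.26 in 3-chloropropanol controls, while the other control groups averaged -2.45 to 0.96. Of all 108 probes called higher, the exposed group alone stood outside the other controls on 35, the control group alone on 32, both on 10 and neither on 31. Of the 55 called lower, the exposed group alone stood outside on 38, the control group alone on 2, both on 6 and neither on 9. Over all probes these shares were 21.3%, 12.6%, 9.27% and 56.8%. Whether the low control levels of the rising probes belong to the animals or to the arrays was not tested.

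**Figure D3:**
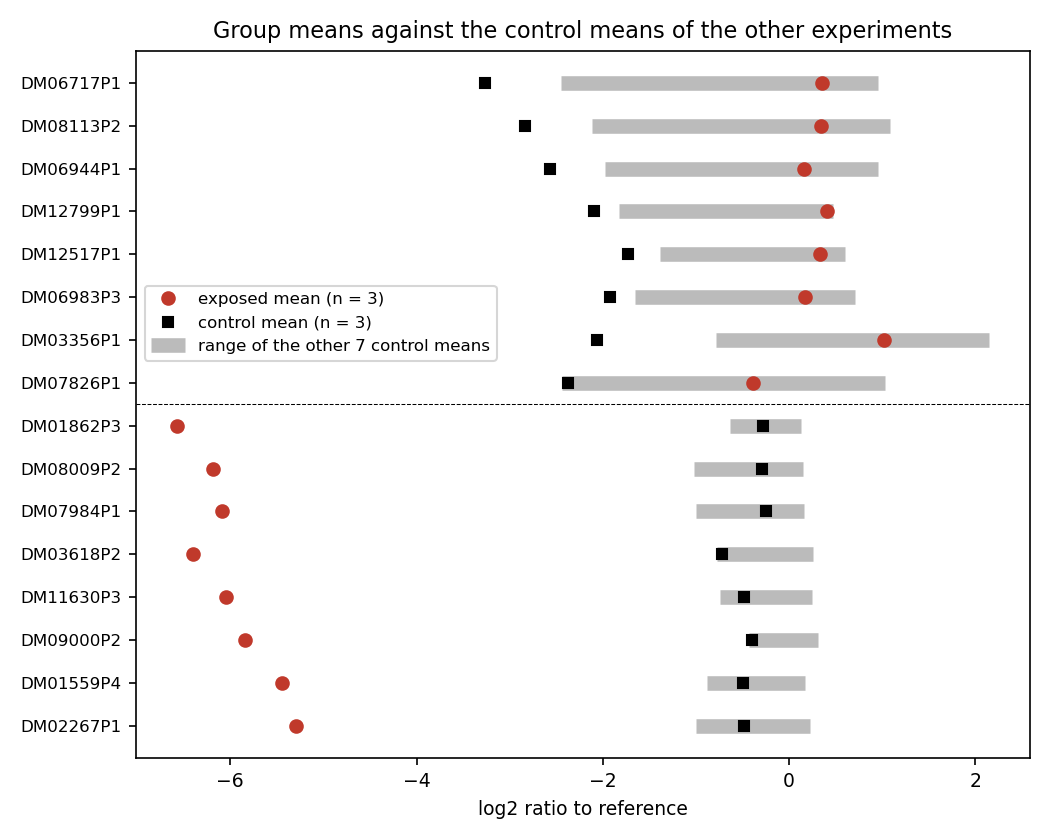
Mean log2 ratio of the 3-chloropropanol exposed and control groups for the 8 strongly rising probes (above the dashed line) and the 8 strongly falling ones (below it), beside the range of the 7 other control means. For the falling probes the exposed mean lies outside that range, and for 7 of 8 rising probes the control mean does.

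Taken dye by dye, with the spread borrowed from all 48 arrays, more probes were called and many turned with the dye. In Cy3 alone 343 probes were called (5.71%). Of these, 161 were higher (2.68%) and 95 of them (59.0%) had the same sign in Cy5, and 182 were lower (3.03%) with 95 (52.2%) of the same sign. Of all probes, 51.8% had the same sign in both dyes, so the share of the Cy3 falls was near that of all probes. In Cy5 alone 429 probes were called (7.14%). Of these, 260 were higher (4.33%) and 206 of them (79.2%) had the same sign in Cy3, and 169 were lower (2.81%) with 119 (70.4%) of the same sign. The calls shared by both dyes were 59, which is 17.2% of the Cy3 calls and 13.8% of the Cy5 calls. They comprised 19 rises, 33 falls and 7 probes of opposite sign. All 19 rises and 28 of the 33 falls were also among the 163. Without exposed replicate 2 the Cy3 arrays called 72 probes, and without control replicate 1 or 3 the Cy5 arrays called 186 or 190. Scaled to equal spread the Cy3 arrays called 4 probes, 0 of them higher. With quantile normalization 47 of 133 Cy3 calls and 138 of 328 Cy5 calls were higher.

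The Cy3 difference rests on 1 control array and the Cy5 difference on 1 exposed array, so the tests in each dye and of their difference assume that these lone arrays vary like replicates in the other groups. The exposure difference itself differed between the dyes for 132 probes (2.2%), 62 higher in Cy3 (1.03%) and 70 lower in Cy3 (1.17%). Of these, 115 had opposite signs in the dyes and 17 the same sign, and 0 were among the 163 called probes. That 0 follows largely from the fit behind the 163, which counts disagreement of the dyes as error. Without control replicate 1 or 3 the count was 44 or 42, and without exposed replicate 2 it was 48. The differences ran from 0.59 to 2.92 and from -4.41 to -0.65. Probe DM00437P3 read 0.53, 0.79 and -2.46 in exposed animals and -0.56, -0.06 and 0.05 in controls. It was 0.71 higher in Cy3 and 2.21 lower in Cy5, a difference of 2.92 ± 0.63 (SE, adjusted p = 0.0219). Exposed replicate 3 alone was low, and the call ended without control replicate 3 (adjusted p = 0.0735) or exposed replicate 2 (adjusted p = 0.0632). Probe DM03273P1 read -0.38, -0.73 and -3.04 in exposed animals and 0.32, 0.24 and 0.25 in controls. Its sign held in both dyes, but its change was -0.79 in Cy3 and -3.33 in Cy5 (difference 2.54 ± 0.24, SE, adjusted p = 9.98e-06), with its Cy5 exposed level from exposed replicate 3 alone.

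On the other side, probe DM12904P1 read -1.95, -0.90 and -0.05 in exposed animals and -3.06, -0.01 and -3.05 in controls. It was 1.42 lower in Cy3 and 3.00 higher in Cy5, a difference of -4.41 ± 0.73 (SE, adjusted p = 0.00447). Probe DM01950P1 read -0.80, 0.23 and -0.10 in exposed animals and -3.57, 0.44 and -3.58 in controls. Its Cy3 change was -0.73 and its Cy5 change 3.47 (difference -4.20 ± 0.77, SE, adjusted p = 0.00727). On both probes controls 1 and 3 were low and control 2 was near 0. These changes remain unsettled.

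A fit over all 48 arrays with 1 common dye term called 524 probes (8.72%), with 5.13% of all probes higher and 3.6% lower. Of the 163 probes above, 132 were among these 524. The same sign in both dyes was found for 519 of the 524, against 51.8% of all probes, and opposite signs for 5. That fit combines the differences of both dyes, which favours a shared sign among its calls. The 519 are therefore no separate evidence that the dyes agreed. The 5 are unsettled and none was called on the 6 arrays alone. DM02118P1 changed by 1.67 ± 0.55 in that fit (SE, adjusted p = 0.0486) with a Cy5 difference of 2.21 and almost none in Cy3. DM08244P1 changed by 1.52 ± 0.46 (SE, adjusted p = 0.0314), with -0.10 in Cy3 and 2.48 in Cy5. DM09245P1 changed by 0.44 ± 0.14 (SE, adjusted p = 0.0399), with 0.87 in Cy3 and -0.15 in Cy5. The other two, DM08786P1 and DM07344P3, changed by -0.75 and -0.34, and each rested on one dye too. On the 6 arrays alone the adjusted p of the 5 was 0.293 to 0.481.

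The set of called probes also depended on single arrays. Of the 163 probes, 26 were called in the fit of all 6 arrays and in each of the 6 fits that left out 1 array. These were 17 of the 55 falls and 9 of the 108 rises. All 26 were also called with controls 1 and 3 counted as 1 sample, where 67 probes were called in all. These 2 controls were nearly alike, and the 26 had to stay called without either of them. That all 26 were called again therefore follows largely from their choice and adds no separate evidence. The number called was 43, 34 and 550 without exposed replicate 1, 2 or 3, and 69, 816 and 72 without control replicate 1, 2 or 3. Leaving out control 2 or exposed 3 leaves one dye with only one group, so those 2 fits rest on the other dye. A further 83 probes changed by at least 1 without being called, and 5 of them had opposite signs in the dyes.

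The probes that 3-chloropropanol changed were next read in the other exposures, each fitted on its own 6 arrays in the same way. Isobutanol called 1012 probes (16.8%), of which 550 were higher (9.16%) and 462 lower (7.69%). 2,3,4-Trichloroaniline, a substituted benzene, called 245 (4.08%), with 2.46% of all probes higher and 1.62% lower. Cadmium, a toxic metal outside the narcotics, called 164 (2.73%), with 1.62% of all probes higher and 1.12% lower. 3,4-Dichlorophenol called 37 (0.616%), with 0.3% higher and 0.316% lower. Aniline, 4-chloroaniline and 3,5-dichloroaniline called 0 probes by limma, while 155, 204 and 266 had an unadjusted p under 0.05.

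The 8 strongly falling probes also fell with isobutanol and with 2,3,4-trichloroaniline. All 8 were called lower in both, against 7.69% of all probes with isobutanol and 1.62% with 2,3,4-trichloroaniline. Their changes were -6.84 to -4.92 with isobutanol and -3.49 to -2.43 with 2,3,4-trichloroaniline. Their changes were -4.53 to -3.37 with 3,4-dichlorophenol, where 0 of 8 passed the test, against 0.316% of all probes called lower. With cadmium they were -3.49 to -2.23, where 1 of 8 passed, against 1.12% of all probes. With 3,5-dichloroaniline they were -0.48 to -0.18, with 4-chloroaniline -0.59 to 0.15 and with aniline 0.06 to 0.63, and none was called. DM01862P3 changed by -6.84 ± 0.19 with isobutanol (SE, adjusted p = 1.82e-05) and by -4.53 ± 1.51 with 3,4-dichlorophenol (SE, adjusted p = 0.239).

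**Figure D4:**
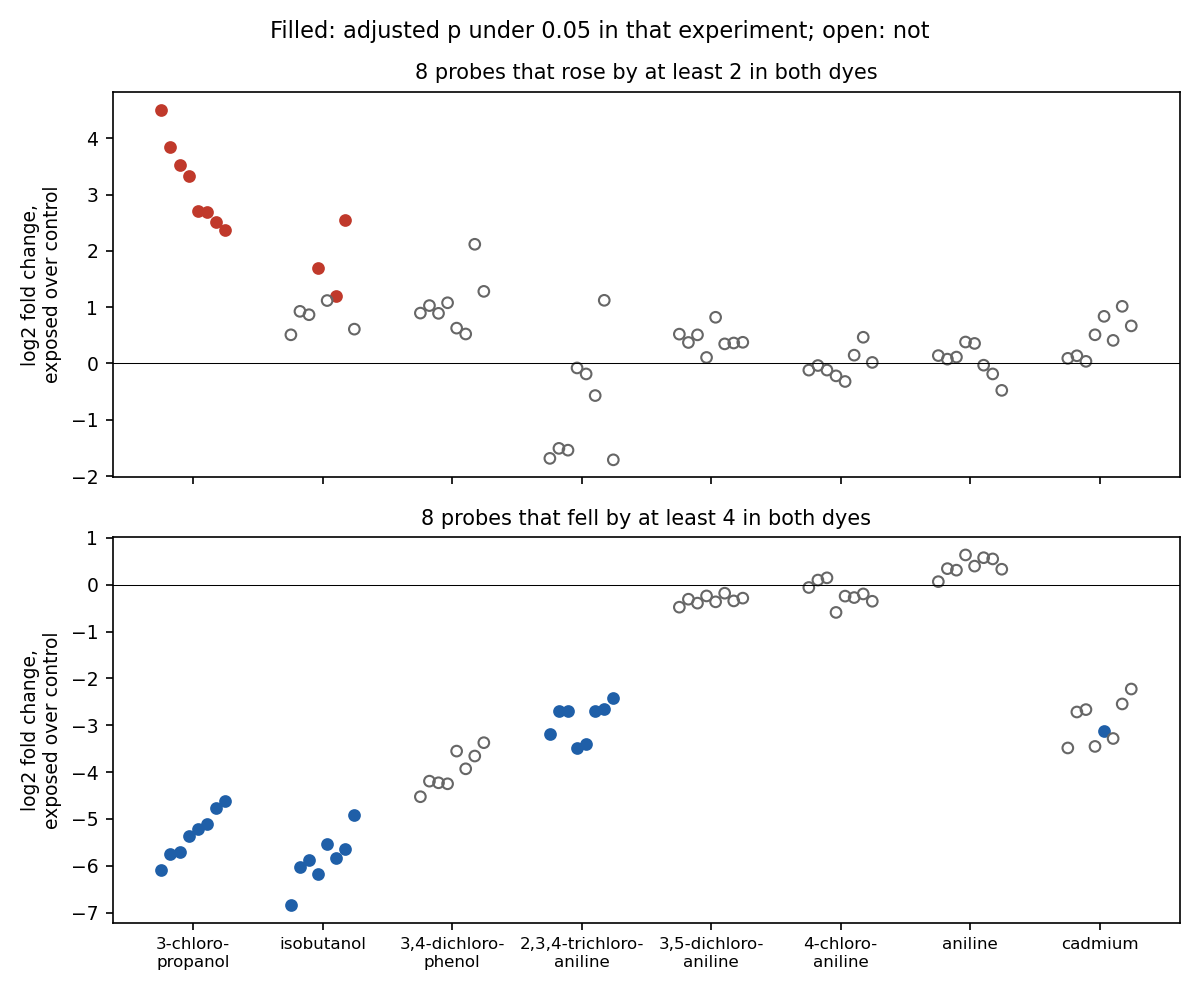
Exposed minus control change (log2) of the 8 strongly falling and the 8 strongly rising probes in each of the 8 chemicals, each fitted on its own 6 arrays, with called probes filled. The falling probes lie at or below -2.23 in 5 exposures and between -0.59 and 0.63 in the 3 remaining ones, while the rising probes reach at most 2.55 outside 3-chloropropanol.

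All 8 strongly rising probes were also higher with isobutanol, 3,4-dichlorophenol, cadmium and 3,5-dichloroaniline, though mostly without passing the test. Of all probes, 49.2%, 51.3%, 52.2% and 49.4% were higher with these chemicals. With isobutanol they changed by 0.51 to 2.55 and 3 of 8 were called higher, against 9.16% of all probes. With 3,4-dichlorophenol they changed by 0.52 to 2.12 with 0 of 8 called, against 0.300% of all probes. With cadmium they changed by 0.04 to 1.02. With 2,3,4-trichloroaniline they changed by -1.71 to 1.12 with a median of -1.04, and only 1 of 8 was higher. With aniline they changed by -0.48 to 0.38 (5 of 8 higher) and with 4-chloroaniline by -0.32 to 0.47 (3 of 8 higher). None was called with any of these 4 chemicals. With 3,5-dichloroaniline they changed by 0.11 to 0.82, with 0 of 8 called. How far the rising and falling sets were shared was not compared by a test. DM06717P1 changed by 0.51 ± 0.35 with isobutanol (SE, adjusted p = 0.382) and by -1.69 with 2,3,4-trichloroaniline (adjusted p = 0.165).

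Among all 108 probes called higher, 100 were also higher with isobutanol (92.6%, against 49.2% of all probes), with a median change of 0.63. There 56 of the 108 were called higher (51.9%, against 9.16% of all probes). With 3,4-dichlorophenol 104 were higher (96.3%, against 51.3% of all probes), with a median of 0.60. There 9 of the 108 were called higher (8.33%, against 0.300% of all probes). With cadmium 89 were higher (82.4%, against 52.2% of all probes) and 23 were called higher (21.3%, against 1.62% of all probes). With 2,3,4-trichloroaniline 46 were higher (42.6%, against 49.2% of all probes), a share near that of all probes. There 16 of the 108 were called higher (14.8%, against 2.46% of all probes) and 3 lower.

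Among the 55 probes called lower, 55 were lower with cadmium (100.0%, against 47.8% of all probes). Of the 55, 21 were called lower there (38.2%, against 1.12% of all probes). With 3,4-dichlorophenol 53 were lower (96.4%, against 48.7% of all probes) and 11 were called lower (20.0%, against 0.316% of all probes). With isobutanol 47 were lower (85.5%, against 50.8% of all probes). There 34 of the 55 were called lower (61.8%, against 7.69% of all probes) and 6 were called higher. With 2,3,4-trichloroaniline 39 were lower (70.9%, against 50.8% of all probes), 18 were called lower (32.7%, against 1.62% of all probes) and 1 higher. With aniline 16 of the 55 were lower (29.1%, against 50.7% of all probes), with a median change of 0.11 and 0 called.

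Over all 6006 probes, the changes with 3-chloropropanol correlated at 0.60 with those of 3,4-dichlorophenol, at 0.55 with isobutanol and at 0.49 with cadmium. They correlated at -0.02 with 2,3,4-trichloroaniline and at -0.21 with aniline. Without the 163 called probes, the first 3 values were 0.30, 0.34 and 0.29. Their order turned with the dye. With 3,4-dichlorophenol the correlation was 0.63 for the Cy3 change and 0.42 for the Cy5 change (0.39 and 0.098 without the called probes). With isobutanol it was 0.48 in Cy3 and 0.46 in Cy5, and with cadmium 0.47 in Cy3 and 0.37 in Cy5. Probes are not independent replicates, and these values are descriptions. The Cy3 arrays of 3-chloropropanol also resembled arrays of 3,4-dichlorophenol in level. Exposed replicates 1 and 2 correlated at a mean of 0.71 and 0.69 with its exposed arrays, and control replicate 2 at 0.70 with its controls. Exposed replicate 3 correlated best with cadmium-exposed arrays, at 0.50. Whether samples of the 2 experiments were exchanged was not tested and cannot be told from the files, and this bears on each comparison of 3-chloropropanol with 3,4-dichlorophenol.

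The 2 alcohols were compared directly at their EC10 after the same 96 h, in a fit of 12 arrays. The effect of 3-chloropropanol differed from that of isobutanol for 237 probes (3.95%), 85 higher (1.42%) and 152 lower (2.53%) with 3-chloropropanol. The 2 changes had opposite signs for 156 of them. They had the same sign for the rest, with the larger size under isobutanol for 67 and under 3-chloropropanol for 14. Most of these signs under 3-chloropropanol belong to changes that did not pass the test: of the 237, the fit of isobutanol on its own 6 arrays had called 189 and that of 3-chloropropanol 35. In the 3-chloropropanol arrays, 187 of the 237 had the same sign in both dyes. The count was 60, 745 and 61 without control replicate 1, 2 or 3, and 459 without exposed replicate 3. With the arrays scaled to equal spread 55 were called, 8 of them higher.

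Probe DM07052P1 had the largest such difference in the values as deposited. It averaged -1.26 ± 0.37 in 3-chloropropanol-exposed animals and -1.51 ± 0.21 in their controls (SD, n = 3 each), a change of 0.10 ± 0.15 (SE). With isobutanol it averaged 3.43 ± 0.28 in exposed animals and -1.55 ± 0.27 in controls, a change of 4.96 ± 0.20 (SE). The difference between the chemicals was -4.86 ± 0.27 (SE, adjusted p = 2.36e-05). It was -3.52 with the arrays scaled to equal spread and -2.94 with quantile normalization, still called, but then smaller in size than the 3.79 and 3.56 of DM06717P1. Probe DM12053P2 read -1.08, -0.995 and -0.12 in 3-chloropropanol-exposed animals and 1.42, 1.07 and 1.37 in their controls, and fell by 1.81 ± 0.15 (SE, adjusted p = 0.00593). With isobutanol it rose by 2.09 ± 0.14 (SE), and the difference was -3.91 ± 0.22 (SE, adjusted p = 2.36e-05). Its 3-chloropropanol controls stood above the other control groups, which averaged -0.95 to -0.11.

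In the other direction, the change of DM06717P1 was 4.00 ± 0.55 higher with 3-chloropropanol (SE, adjusted p = 0.00871). This call ended with the arrays scaled to equal spread (3.79, adjusted p = 0.0692) and without the dye covariate (3.01, adjusted p = 0.276). Probe DM02667P2 differed by 3.15 ± 0.67 (SE, adjusted p = 0.0357), which came from its change of -3.58 ± 0.09 (SE) with isobutanol. Its isobutanol control mean of 2.81 was the highest among the control groups of the other chemicals, whose lowest was -1.57. Its isobutanol-exposed mean of -0.69 lay within that range. With 3-chloropropanol it changed by -1.89 in Cy3 and by 1.03 in Cy5. The difference was no longer called without control replicate 1 or 3 (adjusted p = 0.0827 and 0.0735), with both counted as 1 sample (0.0792), with the arrays scaled to equal spread (0.118) or with quantile normalization (1.83, adjusted p = 0.204). Without exposed replicate 3 it was 1.70 and called. Of the 8 strongly falling probes, 0 differed between the alcohols by limma. Their differences were 0.18 to 0.87 with a typical 95% interval of ± 1.16, so a difference of a 2-fold size could not be resolved. Of the 8 strongly rising probes, 3 rose more with 3-chloropropanol by limma, against 1.42% of all probes. The 8 were chosen for their rise on these same 3-chloropropanol arrays, which favours such a difference.

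Against 3,4-dichlorophenol, a polar narcotic, 0 probes (0.0%) differed by limma, while 688 had an unadjusted p under 0.05; the lowest adjusted p was 0.21. Without control replicate 2 there were 342 calls and without exposed replicate 3 there were 5. The typical 95% interval was ± 0.40. It was ± 3.56 for the 8 strongly falling probes, whose differences were -1.65 to -1.11, and ± 1.45 for the 8 strongly rising ones, whose differences were 0.40 to 3.62. For these probes large differences could not be resolved. DM06717P1 differed by 3.62 ± 0.88 (SE, adjusted p = 0.346).

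**Figure D5:**
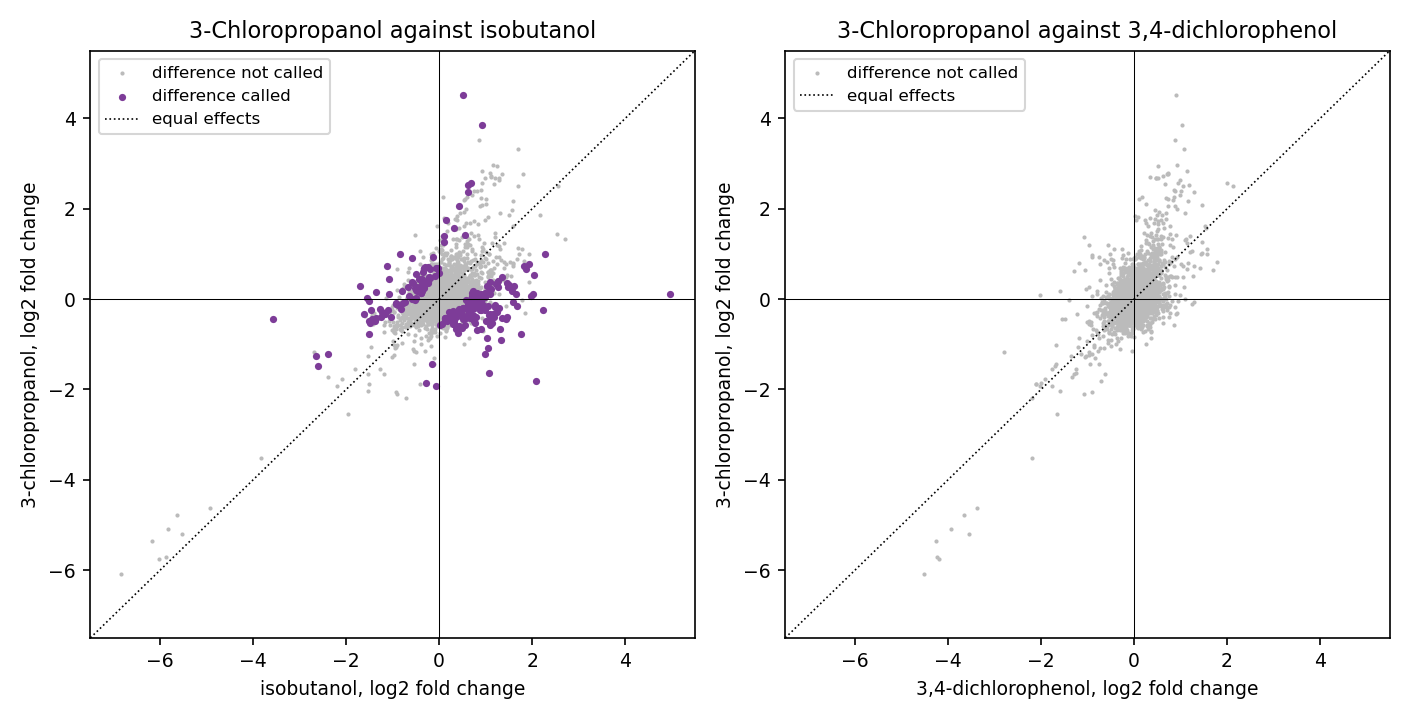
Log2 fold change of each of the 6006 probes with 3-chloropropanol (vertical axis) against that with isobutanol (left) and with 3,4-dichlorophenol (right), with the line of equal changes dotted. The 237 probes whose change differed from isobutanol are purple, most of them with opposite signs in the 2 alcohols, and 0 are marked for 3,4-dichlorophenol.

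The probes nearest in pattern to the leading ones were found by Pearson's r over all 48 arrays. Nearest to DM01862P3 were DM01559P4, DM08009P2 and DM03618P2, at 0.992, 0.990 and 0.988. Nearest to DM06717P1 were DM08113P2, DM06944P1 and DM03516P2, at 0.983, 0.969 and 0.942. Among the 8 strongly falling probes, pairs correlated at 0.965 to 0.999 over the 42 arrays of the other chemicals and at 0.545 to 0.994 over their 21 control arrays. Among the 8 strongly rising probes, pairs correlated at 0.204 to 0.981 over those 42 arrays, with a median of 0.806. Over the 21 control arrays they correlated at -0.182 to 0.986, with a median of 0.829. For all probes the median was -0.004 over the 42 arrays and -0.003 over the 21.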

How the data were processed

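Per the labels, gene expression in whole Daphnia magna was measured on 2-colour Agilent arrays with the sample in Cy3 or Cy5 and a mixed reference in the other dye. The deposited log2 ratios of sample and reference had been normalized by the authors before deposit, and the base of the logarithm was read off the values. The table gave 6006 probes for Daphnia, plus 27 array controls, and lacked 0 values. It may hold only part of the array, as probe numbers reached 15415. How background, normalization and filtering were handled is not given in the sources used. A ratio carries no brightness, so detection above background could not be judged, and precision is limited by the number of arrays.

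Within groups, arrays of opposite dye correlated at a median of 0.44, and the sign of a spike-in followed the dye on 48 of 48 arrays, so the table was taken as already turned to 1 direction. Array medians lay between -0.02 and 0.01. limma 3.58.1 (R 4.3.3; lmFit, eBayes) was run on the 6 arrays with group and dye. The Cy3 and Cy5 differences and their difference were fitted on 32 group and dye means of all 48 arrays, and each difference between chemicals on 12 arrays with dye within each experiment. Tests are two-sided, with Benjamini-Hochberg adjustment over all probes. The fits were tested on simulated data with independent noise, a dye shift shared by all arrays and equal effects in both dyes. The simulated data held no disagreement of the dyes and no near-identical controls, so the fits were not tested under these. The labels call replicates biological and name no separate cultures beyond the pools, so p-values measure the spread between these pools and arrays. Same-numbered deviations of exposed and control arrays correlated at -0.25 for replicate 1, whose 2 arrays differed in dye. They correlated at 0.42 and 0.41 for replicates 2 and 3, whose arrays shared a dye. Whether replicate numbers paired the samples could therefore not be told apart from the dye.

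Members, rules and tests were chosen with earlier results of these data known. The rule for named probes took the 15 largest rises and falls with the same sign in both dyes, the 5 largest of each further contrast and all 48-array calls of opposite sign. As no table pairs probes with genes, only the leading 2 in each direction are named, with the 5 of opposite sign. DM00126P2, the nearest neighbours in pattern and the limits of 4 and 2 were chosen after their values were seen. The plots used matplotlib 3.10.9 (Python 3.11.15).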

Additional observations from a re-analysis of the deposited data

Results flagged for a closer look

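These 8 probes are listed because the change with 3-chloropropanol differed, by limma's test of the difference, between chemicals or between dyes. Between chemicals, the change minus that with isobutanol was 4.00 for DM06717P1, 3.15 for DM02667P2, -4.86 for DM07052P1 and -3.91 for DM12053P2. Between dyes, the Cy3 change minus the Cy5 change was 2.92 for DM00437P3, 2.54 for DM03273P1, -4.41 for DM12904P1 and -4.20 for DM01950P1. The 2 arrays of controls 1 and 3 carry the low control values of the last 2 probes. Groups of 3 samples were too small for a test of single outlying arrays.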

How the results depend on the processing

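The number of probes called for the exposure was 163. It was 524 over 48 arrays with a common dye term (519 with the same sign in both dyes) and 473 with a dye term per experiment (471). It was 26 without the dye covariate, 32 with arrays scaled to equal spread, 97 with array weights, 67 with controls 1 and 3 as 1 sample and 36 at an adjusted p under 0.01, all of the same sign in both dyes. Leaving out 1 array gave 34 to 816, and 34 to 72 for the same-sign count, which needs both groups in both dyes and so has no value without control 2 or exposed 3. The Cy3 count of 343 became 4 scaled, 133 with quantile normalization, 160 with only the probes above the median SD, 550 on the 6 arrays alone and 72 to 349 without 1 array. The Cy5 count of 429 became 1116 with array weights, 185 with controls 1 and 3 as 1 sample, 816 on the 6 arrays alone and 186 to 190 without a control array. The 132 Cy3 minus Cy5 calls became 49 scaled, 86 with only those probes, 504 with array weights, 38 with controls 1 and 3 as 1 sample, 568 on the 6 arrays alone and 42 to 160 without 1 array. The 237 differences from isobutanol became 55 scaled, 138 with quantile normalization, 23 with array weights, 62 with controls 1 and 3 as 1 sample, 47 without the dye covariate and 60 to 745 without 1 array. Those from 3,4-dichlorophenol were 0 throughout, except 342 and 5 without control 2 or exposed 3 (0 to 342 without 1 array). The replicate block, fitted with the dye, gave 48 calls for the exposure, 47 of them shared, and 48 for the same-sign count. It gave 1 difference from isobutanol. Whether the replicate numbers paired the samples could not be told apart from the dye. The causes were not tested. None of the leading 4 probes of each comparison changed direction in any setting run for them. The 5 probes of opposite sign in the dyes and DM00126P2 were not rerun. The calls of DM01862P3 and DM08009P2 for the exposure held in each of them. Signal over background is unknown, so no limit from brightness can be given.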
